A study of Homo sapiens with 4 samples.

Results

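The genes described here are 45 genes of mitosis and the spindle, listed by symbol: cyclins and kinases of mitotic entry, the chromosomal passenger complex, the spindle checkpoint, kinetochore proteins, regulators of anaphase, mitotic motors and proteins of chromosome structure. A probe could be paired by RefSeq accession with 43 of the 45, out of 19483 genes paired on the array. UBE2C, the ubiquitin-conjugating enzyme of the anaphase-promoting complex, and KIF18B, a microtubule-depolymerizing kinesin, had no paired probe and are not analysed here. The brightest probe stood for a gene that had several. The list was drawn up by symbol, but with earlier results of these data known, so it is not independent of them.

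Total RNA came from LNCaP-derived human prostate cancer cells grown with 10% fetal bovine serum. Both lines, TR9-MeTA14 and TR15-MeTA5, stably carry a Tet repressor and a tetracycline-inducible NFκB (AD)-MBD construct, in which an activation domain of NFκB is fused to a methyl-CpG binding domain, so that the protein can be brought to methylated promoters and activate them. Each line was cultured without tetracycline (-Tet) or with it for 4 days (+Tet), which gives 4 groups of 1 array each. The sample labels do not say whether the arrays shared a slide. Whether each line is a single clone is not given in the sources used here. Repressor-only cells with tetracycline are not among the arrays, so an effect of tetracycline itself and an effect of the construct cannot be told apart.

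Signals are Agilent processed signals, that is, spot intensities after background subtraction. For fold changes they were divided by the 75th percentile of each array, which lay at 617, 777, 367 and 542 in TR9-MeTA14 -Tet, TR9-MeTA14 +Tet, TR15-MeTA5 -Tet and TR15-MeTA5 +Tet. This scaling alone lowers a +Tet/-Tet ratio by 1.26-fold in TR9-MeTA14 and by 1.48-fold in TR15-MeTA5. With 1 array per group the spread between cultures is unknown, and no fold change within a line could be tested. Repeated spots put the technical SD of a log2 ratio at 0.0889. Between 20570 and 24225 of 34127 probes were well above background by the scanner software's flag, and no spot was saturated. Of 7 LNCaP markers, KLK3, KLK2, FOLH1, STEAP2, KRT8 and KRT18 were well above background on all 4 arrays and TRPM8 on both TR9-MeTA14 arrays. Of the basal and stromal markers, KRT5, KRT14, TP63, COL1A2, COL3A1, DCN and LUM were not well above background on any array. KRT15 and COL1A1 were so on all 4 arrays. Of the immune markers reported (PTPRC, CD3E and CD68), 2 were well above background in TR15-MeTA5 +Tet and all 3 on the other arrays.

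A dividing cell makes most of these proteins in a burst. CDK1 bound to a B-type cyclin drives the cell into mitosis, Aurora and Polo-like kinases build the spindle, kinetochores join chromosomes to microtubules, and the checkpoint holds back anaphase until all are attached. The anaphase-promoting complex then destroys securin and the cyclins, and the central spindle guides cytokinesis. Many of these genes are transcribed together in late S phase and G2, by promoters that carry a CHR element (cell cycle genes homology region, bound by the DREAM and MMB complexes), CCAAT boxes bound by NF-Y, and in some cases E2F sites. FOXM1 is both a member and a transcription factor of this programme. LNCaP cells divide in culture, and these transcripts are widely read as a measure of proliferation.

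As the members moved together, their promoter sequences were read from RefSeq windows on GRCh38.p14, running from 250 bases before to 50 bases after a transcription start. Windows were found for 38 of the 43 measured members, 45 windows in all, and not for AURKA, BIRC5, FOXM1, TPX2 and TTK. The CHR letters TTTGAA, on either strand, stood in 30 of the 45 windows (66.7%) and in 12.4% of the 21362 windows of all genes named on the array. The following stretches hold the CHR letters in capitals, read 5′ to 3′ along the gene's strand, for the 5 members that were at least 2-fold lower in both lines, for PLK1 and MKI67, and for INCENP, the member that differed most from the rest.
CDK1, chr10:60778454-60778481 (+): agcgcggtgagTTTGAAactgctcgcac
CENPN, chr16:81007206-81007233 (+): caattggtggcTTTGAAggcgcggcgag
NUF2, chr1:163321959-163321986 (+): gaggcggcaagTTTGAAaagtgatgacg
KIF4A, chrX:70290059-70290086 (+): tccgggacggaTTTGAAacttggcggtt
TOP2A, chr17:40418074-40418101 (-): gagtggtgcctTTTGAAgcctctctagt
PLK1, chr16:23678849-23678876 (+): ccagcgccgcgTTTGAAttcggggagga
MKI67, chr10:128126436-128126463 (-): cttcgttttcgTTTGAAttgggcgggcg
INCENP, chr11:62123990-62124017 (+): gagccttcagtTTTGAAaatcatagttt

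The variant TTCGAA was found in 3 member windows (6.67%, against 1.57% of all), CCAAT on either strand in 35 (77.8%, against 34.7%) and the E2F letters TTCCCGC on either strand in 7 (15.6%, against 8.23%). A TTTGAA or TTCGAA together with CCAAT was found in 26 windows (57.8%, against 5.44%). The motifs do not contain each other. Several windows of a gene overlap and are not independent. BUB1, CDCA5 and NDC80 held the variant:
BUB1, chr2:110678046-110678073 (-): tgcgcggggtaTTCGAAtcggcggcggc
CDCA5, chr11:65084050-65084077 (-): agggcgggtaaTTCGAAcgttttttgca
NDC80, chr18:2571549-2571576 (+): agaatttcaaaTTCGAAcggctttggcg

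CG dinucleotides, the target of the methyl-CpG binding domain when methylated, numbered between 12 and 40 per member window (median 24), and the median over all genes named on the array was 21. The methylation of these promoters is not analysed here. Members with TTTGAA in a window did not stand lower than the others: the median log2 fold change was -2.58 over 27 genes with it and -2.68 over 11 genes without it in TR9-MeTA14, and -0.75 in both sets in TR15-MeTA5. The 11 include BUB1 and CDCA5, which hold the variant TTCGAA, so they are not all free of a CHR element. An effect of the element was not tested.

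In TR9-MeTA14 cells, tetracycline went with far lower signals of nearly the whole group. Of 43 members, 42 were at least 2-fold lower with tetracycline, where 15.1% of 15076 genes were. The remaining member, INCENP, was at least 2-fold higher, as were 16.8% of all genes. The median of the members was 6.37-fold lower (log2 fold change -2.67), and the median of all genes was -0.06. Only 1.62% of all genes lay at or below the members' median. Log2 fold changes ran from -3.74 for NUF2 to 1.58 for INCENP. The arrays measure bulk RNA, so fewer cells in mitosis and less of each RNA per cell cannot be told apart.

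**Figure D1:**
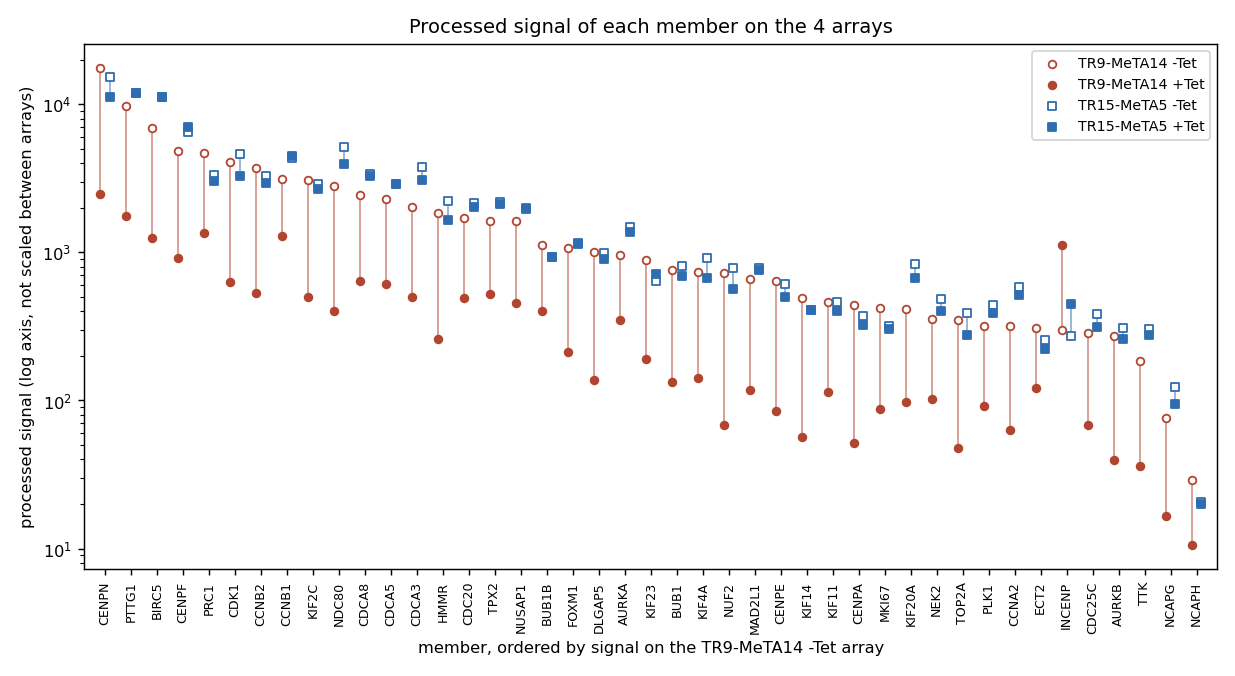
Processed signal (log axis, not scaled between arrays) of each of the 43 members on the 4 arrays, with members ordered by their signal in TR9-MeTA14 -Tet. Open symbols are -Tet, filled symbols +Tet, circles TR9-MeTA14 and squares TR15-MeTA5. In TR9-MeTA14 the filled symbol lies below the open symbol for 42 members and above it for INCENP, while in TR15-MeTA5 both lie close together.

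In TR15-MeTA5 cells the same direction was seen at a much smaller size. Of 43 members, 5 were at least 2-fold lower, where 2.21% of 14371 genes were: CDK1, TOP2A, NUF2, KIF4A and CENPN. No member was at least 2-fold higher, against 10.1% of all genes. The median was 1.63-fold lower (log2 fold change -0.70), beside a median of -0.16 for all genes, and the values ran from -1.07 for CDK1 to 0.16 for INCENP. At or below the members' median lay 6.69% of all genes. These 5 members were also the members at least 2-fold lower in both lines, which held for 0.836% of 13992 genes. No member was at least 2-fold higher in both, against 8.30%.

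The size of the fold changes in TR15-MeTA5, and the count of 5, rest on how the arrays are scaled. Before scaling, +Tet/-Tet ratios of the members in this line had a median of 0.909 and ran from 0.705 to 1.65, with 35 members below 1 and 8 above. In TR9-MeTA14 the unscaled median was 0.197, with 42 below 1. With spike-in probes as the scale, the members' median in TR15-MeTA5 became -0.27 and no member passed 2-fold, while the median of all genes became 0.27. The share of all genes past 2-fold was not counted on that scale, so this count cannot be read alone. The place of the members among the other genes does not depend on the scale: in each line 42 of 43 lay below the median of all genes. A log2 fold change below 0, which does depend on the scale, was found for 42 of 43 in each line, against 52.9% of all genes in TR9-MeTA14 and 64.0% in TR15-MeTA5. In TR15-MeTA5, 30 of the 43 were among the lowest 10.0% of genes, and in TR9-MeTA14 42 were. All 30 were among the lowest 10.0% in both lines, which held for 3.66% of genes.

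**Figure D2:**
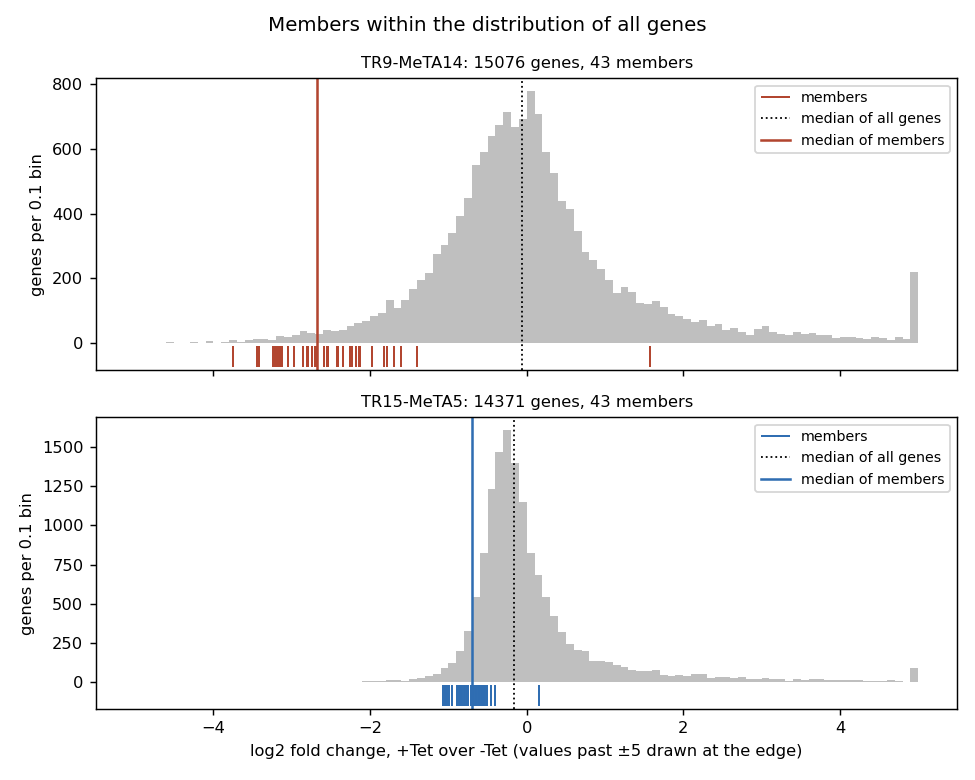
Histograms of log2 fold changes (+Tet over -Tet) of all genes in TR9-MeTA14 (15076 genes) and TR15-MeTA5 (14371 genes), with a coloured tick for each of 43 members, a coloured line at their median and a dotted line at the median of all genes. The members' medians lie at -2.67 and -0.70, and the histogram of TR15-MeTA5 is the narrower.

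Mitotic entry was represented by 8 members, and all 8 were at least 2-fold lower in TR9-MeTA14, against 15.1% of all genes, with a median of -2.54. In TR15-MeTA5 their median was -0.75, and CDK1 alone was at least 2-fold lower, against 2.21% of all genes. CDK1, the kinase that starts mitosis, had signals of 4109.7 in TR9-MeTA14 -Tet, 627 in TR9-MeTA14 +Tet, 4623 in TR15-MeTA5 -Tet and 3258 in TR15-MeTA5 +Tet. It was 8.25-fold lower with tetracycline in TR9-MeTA14 and 2.10-fold lower in TR15-MeTA5. The CDK1 probe is printed 10 times per array, and its spots ran from 3868 to 4486 in TR9-MeTA14 -Tet and from 580.0 to 649 in TR9-MeTA14 +Tet, so the ranges were far apart. In TR15-MeTA5 they ran from 4343 to 5011 without and from 3097 to 3383 with tetracycline, again without overlap before any scaling. Of the other members printed 10 times, CCNA2, CCNB1, BIRC5 and CDCA5 had overlapping spot ranges in TR15-MeTA5 before scaling. Those of CENPE, KIF20A, TOP2A and INCENP did not overlap. Spots repeat the same RNA on the same array and do not measure the spread between cultures.

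CCNB1, the cyclin B that pairs with CDK1, was the least lowered of this role, with 3120.3 and 1292 in TR9-MeTA14 -Tet and +Tet and with 4339 and 4508 in TR15-MeTA5. Its log2 fold change was -1.60 in TR9-MeTA14 and -0.51 in TR15-MeTA5, where the unscaled signal was slightly higher with tetracycline (ratio 1.04). The PLK1 signal was 321 in TR9-MeTA14 -Tet, 92.3 in TR9-MeTA14 +Tet, 441 in TR15-MeTA5 -Tet and 388 in TR15-MeTA5 +Tet. PLK1, the Polo-like kinase of centrosome maturation and spindle assembly, was thus low on the TR9-MeTA14 +Tet array only, at 4.37-fold lower, against 1.68-fold in TR15-MeTA5. FOXM1, with signals of 1073, 212, 1157 and 1147 in the same order, was 6.37-fold and 1.49-fold lower, and its unscaled ratio in TR15-MeTA5 was 0.992. CCNA2 and CCNB2 (cyclins), CDC25C (the phosphatase that activates CDK1) and NEK2 (a kinase of centrosome separation) lay between -3.13 and -2.12 in TR9-MeTA14 and between -0.85 and -0.72 in TR15-MeTA5.

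The chromosomal passenger complex, which corrects faulty kinetochore attachments and acts in cytokinesis, was split. Its kinase AURKB had signals of 274, 39.6, 307 and 259.9 in TR9-MeTA14 -Tet, TR9-MeTA14 +Tet, TR15-MeTA5 -Tet and TR15-MeTA5 +Tet. This was 8.71-fold lower with tetracycline in TR9-MeTA14, with a log2 fold change of -0.81 in TR15-MeTA5. BIRC5 (survivin) and CDCA8 (borealin), the subunits that target the complex to chromatin, stood at -2.79 and -2.25 in TR9-MeTA14 and at -0.56 and -0.60 in TR15-MeTA5.

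INCENP, the scaffold that binds and activates AURKB, ran the other way, with signals of 297 in TR9-MeTA14 -Tet, 1114 in TR9-MeTA14 +Tet, 272 in TR15-MeTA5 -Tet and 449.9 in TR15-MeTA5 +Tet. It was 2.98-fold higher with tetracycline in TR9-MeTA14 and 1.12-fold higher in TR15-MeTA5, where 72.6% of all genes had a lower log2 fold change. Before scaling its ratios were 3.75 and 1.65. They were the highest of the members in both lines, an order that this scaling cannot change. Its probe has 10 spots, and those kept ran from 286 to 314 and from 1064 to 1219 in TR9-MeTA14 -Tet and +Tet. With no second probe paired, the direction of INCENP rests on 1 sequence.

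The spindle checkpoint members were all at least 2-fold lower in TR9-MeTA14 (median -2.75) and none was in TR15-MeTA5 (median -0.65). Of all genes, 15.1% were so in TR9-MeTA14 and 2.21% in TR15-MeTA5. BUB1, a checkpoint kinase at kinetochores, had signals of 762, 133, 806 and 688 in TR9-MeTA14 -Tet, TR9-MeTA14 +Tet, TR15-MeTA5 -Tet and TR15-MeTA5 +Tet. BUB1B (BubR1, part of the complex that inhibits anaphase) had 1128, 401, 937 and 926 in the same order. BUB1 was therefore 7.23-fold and BUB1B 3.54-fold lower in TR9-MeTA14, and at -0.79 and -0.58 in TR15-MeTA5. MAD2L1, the MAD2 protein that inhibits CDC20, and TTK, the kinase MPS1 that starts the signal, lay between these at -2.81 and -2.69 in TR9-MeTA14.

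Centromere and kinetochore genes had the lowest median of the 8 roles in both lines, at -3.20 in TR9-MeTA14 and -0.91 in TR15-MeTA5. NUF2, a subunit of the NDC80 complex that grips microtubules, had signals of 722 in TR9-MeTA14 -Tet, 67.8 in TR9-MeTA14 +Tet, 788 in TR15-MeTA5 -Tet and 568 in TR15-MeTA5 +Tet. It was 13.4-fold lower in TR9-MeTA14, where 32 of 15076 genes were lower still, and 2.05-fold lower in TR15-MeTA5. NDC80 itself stood at -3.14 and -0.96. CENPA, the histone H3 variant that marks centromeres, stood at -3.42 and -0.76, and CENPN, which binds CENPA nucleosomes, at -3.16 and -1.01. CENPE, a kinetochore kinesin, stood at -3.24 and -0.87.

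CENPF, a large kinetochore protein of G2 and mitosis, had the smallest fold changes of the role in both lines, with signals of 4865, 916, 6491 and 7016 in TR9-MeTA14 -Tet, TR9-MeTA14 +Tet, TR15-MeTA5 -Tet and TR15-MeTA5 +Tet. That is 6.68-fold lower in TR9-MeTA14 and 1.37-fold lower in TR15-MeTA5, although its unscaled signal in TR15-MeTA5 was higher with tetracycline (ratio 1.08). CENPN and CENPF have 3 and 2 paired probes, and all of them were lower in both lines. Across the 8 members with several probes, each probe had a log2 fold change below 0 in each line, and the widest gap between measured probes was that of KIF4A in TR9-MeTA14, from -2.71 to -1.66.

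Of the genes of the anaphase-promoting complex, anaphase and cohesion, the 4 measured members were lower by -2.29 at the median in TR9-MeTA14 and by -0.61 in TR15-MeTA5. PTTG1 (securin, which blocks separase until anaphase) had signals of 9748, 1752, 12013 and 11919 in TR9-MeTA14 -Tet, TR9-MeTA14 +Tet, TR15-MeTA5 -Tet and TR15-MeTA5 +Tet. CDC20, the activator of the complex that the checkpoint restrains, had 1704, 489, 2168 and 2039 in the same order. PTTG1 stood at -2.81 and CDC20 at -2.13 in TR9-MeTA14, and both moved by less than 2-fold in TR15-MeTA5 (1.49-fold and 1.57-fold lower). CDCA5 (sororin, which protects cohesion) stood at -2.23 and -0.56, and CDCA3, which promotes destruction of the kinase WEE1, at -2.35 and -0.84.

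Spindle assembly genes were at least 2-fold lower in TR9-MeTA14 in 7 of 7 and in TR15-MeTA5 in none, against 15.1% and 2.21% of all genes. At so low a share of all genes, none of 7 in TR15-MeTA5 says little about the role. HMMR, a microtubule-associated protein at spindle poles, had signals of 1853 and 262 in TR9-MeTA14 -Tet and +Tet and of 2223 and 1650.2 in TR15-MeTA5 -Tet and +Tet. It stood just short of 2-fold in TR15-MeTA5 (1.99-fold lower) and was 8.90-fold lower in TR9-MeTA14. AURKA, the Aurora kinase of centrosomes, had 962 and 352 in TR9-MeTA14 and 1486 and 1382 in TR15-MeTA5, which is 3.44-fold and 1.59-fold lower. TPX2, the activator of AURKA, was beside it at -1.98 and -0.61. KIF11 (the Eg5 motor that pushes poles apart), KIF2C (a depolymerizing kinesin), DLGAP5 and NUSAP1 (which stabilize spindle microtubules) lay between -3.21 and -2.17 in TR9-MeTA14 and between -0.76 and -0.54 in TR15-MeTA5.

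Among genes of the central spindle and cytokinesis, all 6 were at least 2-fold lower in TR9-MeTA14 and KIF4A was so in TR15-MeTA5. Of all genes, 15.1% were so in TR9-MeTA14 and 2.21% in TR15-MeTA5. KIF14, a cytokinesis kinesin, had signals of 491, 57.0, 407 and 411 in TR9-MeTA14 -Tet, TR9-MeTA14 +Tet, TR15-MeTA5 -Tet and TR15-MeTA5 +Tet. Its 2 lines differed widely: it was 10.8-fold lower in TR9-MeTA14, and in TR15-MeTA5 the signals were level before scaling and 1.46-fold lower after it. ECT2, the exchange factor that activates RhoA at the cleavage furrow, had 311, 121, 257 and 223 in the same order and was 3.24-fold and 1.70-fold lower. The motors KIF20A and KIF23 and the microtubule bundler PRC1 stood at -2.43, -2.54 and -2.14 in TR9-MeTA14 and at -0.89, -0.41 and -0.70 in TR15-MeTA5.

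Genes of chromosome structure included the dimmest member. TOP2A, the topoisomerase that untangles sister chromatids, had signals of 348, 47.9, 389.8 and 279 in TR9-MeTA14 -Tet, TR9-MeTA14 +Tet, TR15-MeTA5 -Tet and TR15-MeTA5 +Tet, and was 9.13-fold and 2.07-fold lower. MKI67, whose protein Ki-67 coats mitotic chromosomes and is the usual histological mark of proliferation, had 419.5, 88.1, 321 and 303 in that order. It was 5.99-fold lower in TR9-MeTA14 and 1.56-fold lower in TR15-MeTA5, and its 3 probes gave log2 fold changes of -2.58, -2.84 and, as a bound, -3.32 in TR9-MeTA14 and from -0.71 to -0.51 in TR15-MeTA5. NCAPG, a condensin subunit, stood at -2.55 and -0.95. NCAPH, another condensin subunit, had 29.2, 10.5, 20.7 and 19.9 and was well above background on the -Tet arrays only. It was at least 2.64-fold lower in TR9-MeTA14 and at least 1.54-fold lower in TR15-MeTA5, the bound being set by the lowest signal well above background or the probe's own signal, whichever was higher. With normexp and quantile normalization NCAPG and NCAPH were short of 2-fold in TR9-MeTA14, at -0.92 and -0.40.

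**Figure D3:**
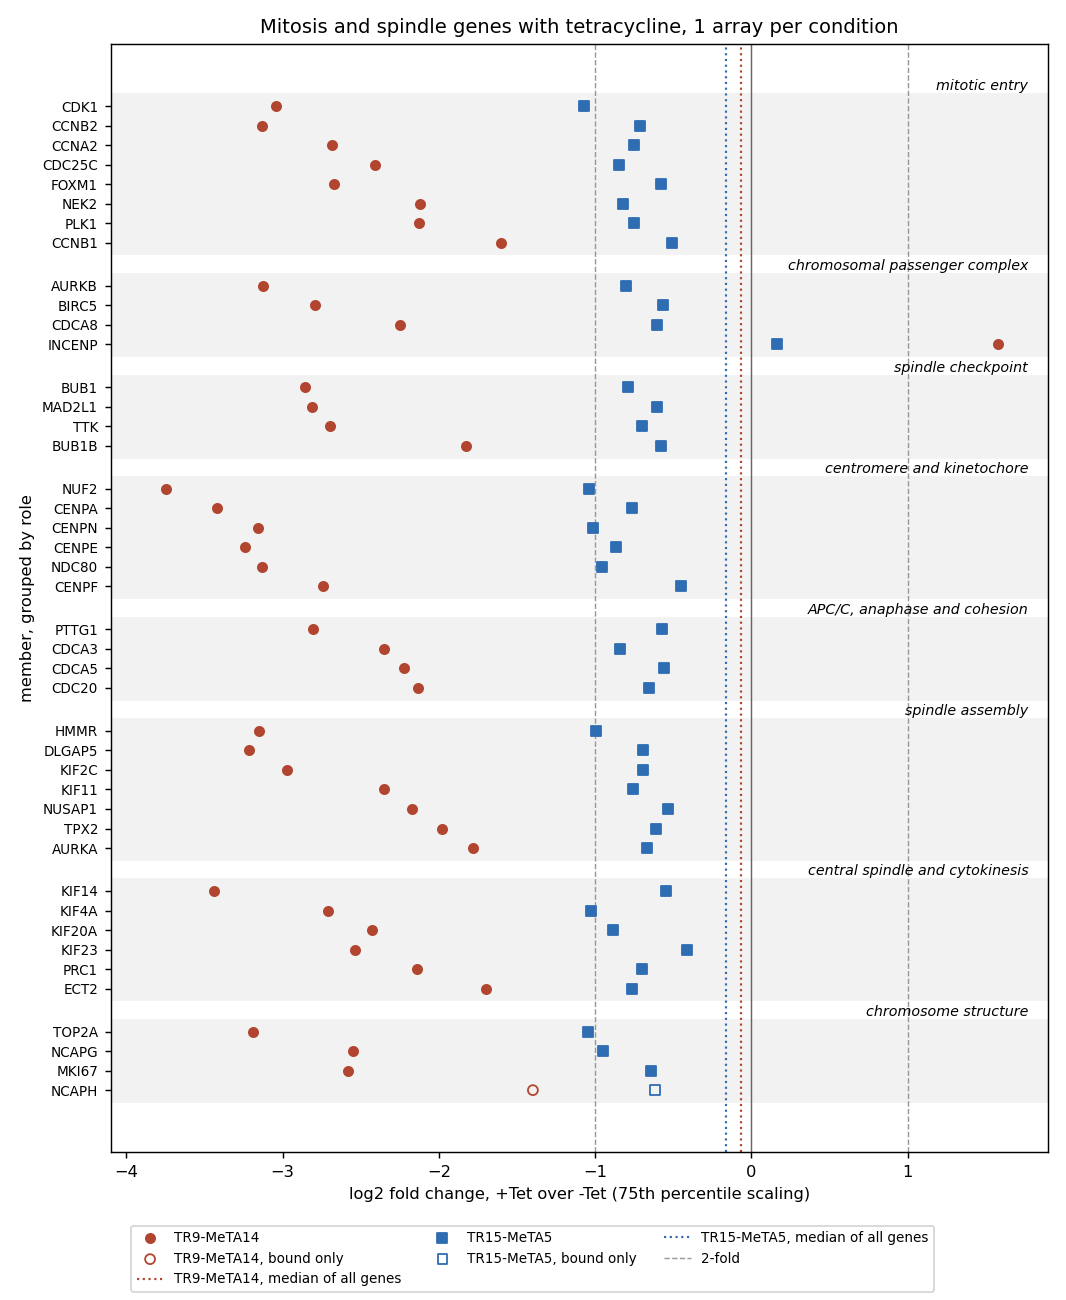
Log2 fold change (+Tet over -Tet, 75th percentile scaling) of the 43 members grouped by role, with circles for TR9-MeTA14 and squares for TR15-MeTA5, open where only a bound is known (NCAPH). Dotted lines are the medians of all genes in each line (-0.06 and -0.16) and dashed lines mark 2-fold. All circles but that of INCENP lie left of the dashed line, and the squares lie between -1.07 and 0.16.

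No test of the difference between the lines' responses was possible, because a term for it would use up the last degree of freedom of 4 arrays. The log2 fold change in TR15-MeTA5 minus that in TR9-MeTA14 had a median of 1.94 over the members, positive for 42 of 43, and of -0.03 over all genes. Across the 43 members, the log2 fold changes of the 2 lines had a Pearson r of 0.69 and a Spearman rho of 0.42. Without INCENP these were 0.42 and 0.38. The genes are not independent replicates, and the arrays of a line are shared by all points.

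Without tetracycline the lines already differed. By the brightest probe, scaled signals were higher in TR15-MeTA5 -Tet than in TR9-MeTA14 -Tet for 43 of 43 members. The median log2 difference was 1.00, and 22 were at least 2-fold higher, against 8.13% of genes. The dimmer CENPN probes went the other way, at -0.42 and -0.84, and all further probes of other members were higher in TR15-MeTA5 -Tet. No member was at least 2-fold lower by its brightest probe, against 5.29% of genes. The direction depends on the scale: on spike-in probes the median difference was -0.05 and no member was at least 2-fold higher. With tetracycline, 41 of 42 members were at least 2-fold higher in TR15-MeTA5, against 14.2% of genes, with a median of 2.92. No member was at least 2-fold lower, against 10.4%, and INCENP was the exception to the direction at -0.79. On spike-in probes this median was 2.16, and 38 members were at least 2-fold higher. Shares of all genes at 2-fold were not counted on spike-in probes, so the member counts there cannot be read alone. These contrasts share their arrays with the tetracycline comparisons.

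The lines are the only repetition of the treatment, and limma was fitted over both with cell line as a block, on 22814 probes and with 1 residual degree of freedom. No member passed an adjusted p of 0.05 (Benjamini-Hochberg over all probes), where, of 14464 genes with a tested brightest probe, 0.0138% passed as lower and 3.22% as higher. The log2 fold change was negative for 42 of 43, and at an unadjusted p under 0.05 were 38 members lower and none higher, against 8.33% and 13.2% of genes. The lowest adjusted p among members by limma was 0.18, for KIF4A, and the highest 0.321, for INCENP. With 1 residual degree of freedom, a change that is large in TR9-MeTA14 and small in TR15-MeTA5 adds to the residual spread of the fit. On spike-in scaling, 11 members were lower and 1 was higher at an unadjusted p under 0.05, against 195 and 2650 of 14464 genes. With no block for cell line no member was lower or higher at that threshold, against 414 and 1575 genes.

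A second list of 74 mitosis genes outside the 43 was also lower at the median than all genes in both lines. The medians of all genes were -0.06 in TR9-MeTA14 and -0.16 in TR15-MeTA5. This list too was chosen with earlier results of these data known. In TR9-MeTA14, 57 of 74 were at least 2-fold lower and 2 higher, against 15.1% and 16.8% of all genes, with a median of -1.74. In TR15-MeTA5 1 was lower (1.35%) and 1 higher, against 2.21% and 10.1% of all genes, with a median of -0.63. By limma none of the 74 passed the adjusted threshold. At an unadjusted p under 0.05, 46 were lower and 1 higher, against 8.33% and 13.2% of genes. With bounds taken at their own values, the lowest mean changes were those of ANLN (anillin, of the contractile ring), DEPDC1 and ASPM (of spindle poles). The ANLN signal was 186, 13.8, 210.1 and 173 in TR9-MeTA14 -Tet, TR9-MeTA14 +Tet, TR15-MeTA5 -Tet and TR15-MeTA5 +Tet, so that it was at least 16.8-fold lower in TR9-MeTA14, where the +Tet probe was not well above background. DEPDC1 stood at -3.57 and -0.88, and ASPM at -3.67 and -0.72. KIF18A, ARHGAP11A and CENPI, also known in TR9-MeTA14 only by a bound, have no settled place in this order.

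The 3 highest means of this list were those of MAD1L1, TUBB4B and CCNF. MAD1L1, the checkpoint protein that recruits MAD2L1 to unattached kinetochores, had signals of 412, 5147, 323 and 1864 and was 9.92-fold higher in TR9-MeTA14 and 3.91-fold higher in TR15-MeTA5. Its adjusted p by limma over both lines was 0.0658. MAD1L1 was thus higher with tetracycline in both lines while its partner MAD2L1 stood at -2.81 and -0.61. TUBB4B, a beta-tubulin, was 3.89-fold higher in TR9-MeTA14 and at -0.01 in TR15-MeTA5. CCNF (cyclin F) stood at 0.92 and 0.11. MAD1L1, TUBB4B and CCNF each had 1 paired probe, printed as 1 spot per array, so the direction of each rests on 1 sequence.

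**Figure D4:**
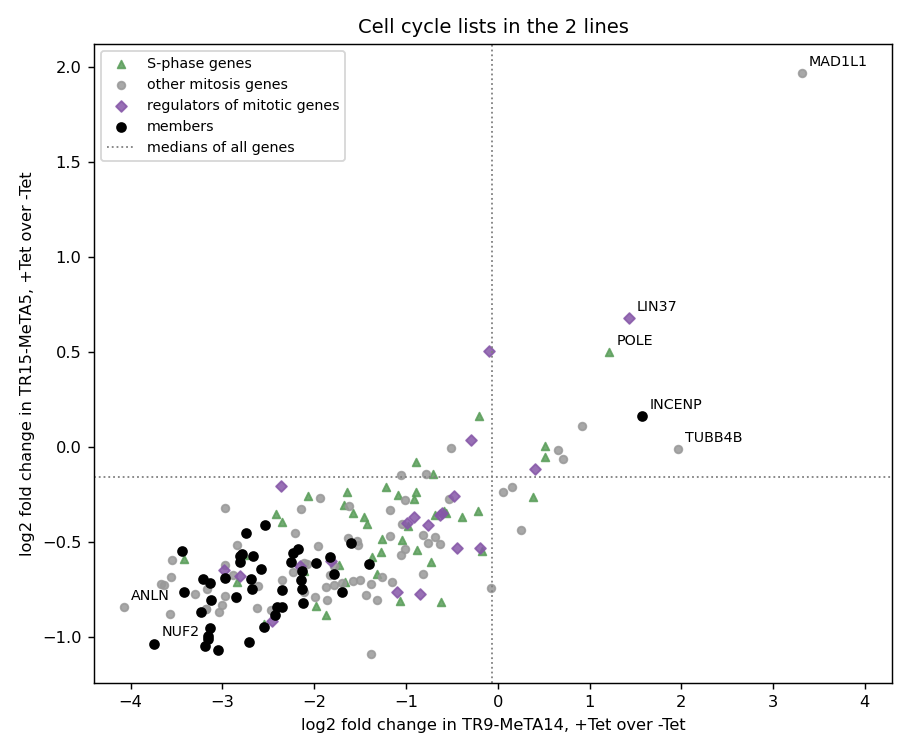
Log2 fold change (+Tet over -Tet) in TR9-MeTA14 on the horizontal axis and in TR15-MeTA5 on the vertical axis for the 43 members, 74 other mitosis genes, 44 S-phase genes and 20 regulators, 1 point per gene, with dotted lines at the medians of all genes. Most members lie at the lower left, and INCENP, MAD1L1, TUBB4B, POLE and LIN37 lie at the right.

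Genes of DNA replication, which peak earlier in the cell cycle, had medians below those of all genes in both lines. The medians of all genes were -0.06 in TR9-MeTA14 and -0.16 in TR15-MeTA5. Of 44 S-phase genes, 25 were at least 2-fold lower and 1 higher in TR9-MeTA14 (median -1.15), against 15.1% and 16.8% of all genes. None passed 2-fold in TR15-MeTA5 (median -0.38), against 2.21% of all genes lower and 10.1% higher. On spike-in probes this median moved by more than the technical SD, and that of all genes became 0.27. Its sign in TR15-MeTA5 therefore depends on the scale. With bounds taken at their own values, the lowest means over both lines were those of MCM10 and CDC45, both of the replication fork, and RRM2, a ribonucleotide reductase subunit. MCM10 stood at -3.42 or lower in TR9-MeTA14, its +Tet probe not being well above background, and at -0.59 in TR15-MeTA5. CDC45 stood at -2.84 and -0.71, and RRM2 at -2.55 and -0.93. CLSPN and CDC6 were likewise known in TR9-MeTA14 only as at least 3.33-fold and at least 2.10-fold lower, so their place in this order is not known. The highest were POLE (a replicative polymerase) at 1.21 and 0.50, CDT1 (a licensing factor) at 0.51 and 0.00, and UHRF1, which binds hemimethylated DNA, at 0.52 and -0.05. By limma none of the 44 passed the adjusted threshold. An unadjusted p under 0.05 was found for 14, all lower, against 8.33% of genes lower and 13.2% higher.

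Among 20 regulators of mitotic genes, 7 were at least 2-fold lower and 1 higher in TR9-MeTA14 (median -0.80), against 15.1% and 16.8% of all genes. None passed 2-fold in TR15-MeTA5 (median -0.41), against 2.21% of all genes lower and 10.1% higher. The medians of all genes were -0.06 in TR9-MeTA14 and -0.16 in TR15-MeTA5. As for the S-phase genes, the sign of the median in TR15-MeTA5 depends on the scale. The lower ones were the activators E2F1 (-2.81) and E2F2 (-2.99), the repressors E2F7 (-2.37) and E2F8 (at least 5.52-fold lower), MYBL2 (-2.16), and the pocket proteins RBL1 (-1.10) and RBL2 (-1.82). In TR15-MeTA5 these ranged from -0.92 for E2F8 to -0.21 for E2F7. LIN37, a subunit shared by DREAM and MMB, was the gene at least 2-fold higher, at 1.43 in TR9-MeTA14 and 0.68 in TR15-MeTA5. Its direction rests on 1 probe of 1 spot per array. The shared subunits LIN9, LIN52, LIN54 and RBBP4 stood at -0.99, -0.30, -0.19 and -0.48 in TR9-MeTA14 and at -0.40, 0.03, -0.53 and -0.26 in TR15-MeTA5.

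The remaining E2F-family genes E2F3, E2F4 and TFDP1 stood at -0.92, -0.63 and -0.45 in TR9-MeTA14 and at -0.37, -0.36 and -0.53 in TR15-MeTA5. The NF-Y subunits NFYA, NFYB and NFYC, which bind CCAAT, stood at -0.10, -0.76 and -0.61 and at 0.50, -0.41 and -0.35. CDKN1A (p21), an inhibitor of cyclin-dependent kinases, was at 0.41 and -0.12, and CDKN1B (p27) at -0.84 and -0.78. By limma none of the 20 passed the adjusted threshold. At an unadjusted p under 0.05, 7 were lower and 1 higher, against 8.33% and 13.2% of genes.

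Other genes moved with the members, and their part in the result was not tested. Among LNCaP markers, KLK3 stood at -1.95 and -0.70 in TR9-MeTA14 and TR15-MeTA5 and KLK2 was 16.0-fold and 1.98-fold lower, with FOLH1 at -0.68 and -0.48, STEAP2 at -1.62 and -0.47, KRT18 at -0.86 and -0.64, KRT8 at 0.24 and -0.35, and TRPM8 at -2.56 in TR9-MeTA14. Their summed signal, in multiples of the array's 75th percentile, was 411 in TR9-MeTA14 -Tet, 159 in TR9-MeTA14 +Tet, 561 in TR15-MeTA5 -Tet and 354 in TR15-MeTA5 +Tet. The 3 immune markers reported summed to 0.497, 1.961, 1.314 and 2.498 in the same order, where CD68 stood at 2.52 and 1.32, PTPRC at 0.24 and -0.62, and CD3E at 0.41 and as at least 2.55-fold lower. The basal markers summed to between 0.191 and 0.329 and the stromal markers to between 0.147 and 0.805, with KRT15 (0.15 and -0.04) and COL1A1 (-0.24 and 0.86) as the genes well above background. The number of probes well above background also moved with tetracycline, from 21920 to 24225 in TR9-MeTA14 and from 20570 to 21603 in TR15-MeTA5.

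**Figure D5:**
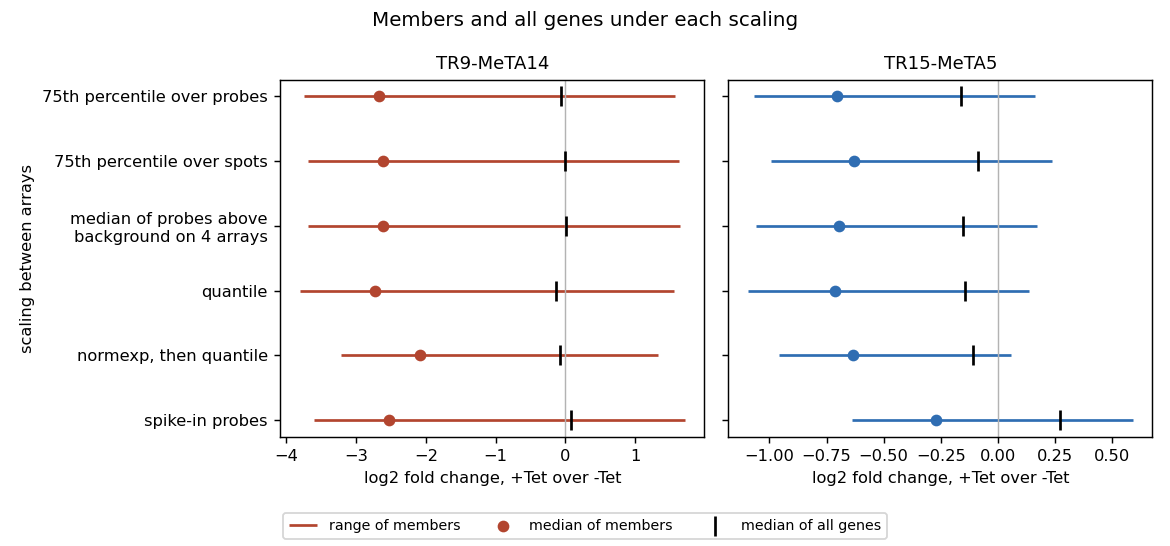
Median (dot) and range (line) of log2 fold changes of the members, and the median of all genes (black bar), under 6 ways of scaling the arrays, in TR9-MeTA14 and TR15-MeTA5. In TR9-MeTA14 the members' median lies between -2.73 and -2.09 under all 6, and in TR15-MeTA5 between -0.71 and -0.27, below the median of all genes each time.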

How the data were processed

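Microarray data covered 4 Cy3 arrays (Agilent whole human genome, 4 × 44K), 1 per combination of cell line and tetracycline. The authors deposited Feature Extraction output, in which the processed signal is an intensity per spot, background-subtracted and not normalized between arrays. The file headers name Feature Extraction 10.7.3.1 and the submitters' processing notes 9.5.1. A deposited series table held the same intensities on all 44495 rows. Columns of samples outside the series numbered 0.

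From these, log2 signals of non-outlier spots were averaged per probe and the array's 75th percentile was subtracted. Of the non-control probes, 74.5% were named through RefSeq accessions (assembly GRCh38.p14, names and promoter windows only; the design of the array is based on hg19, and no probe coordinates are given). Where a probe was not well above background on an array, the fold is a lower bound. Calls used 2-fold in either direction, where the study's own cut-off was for higher signals only. For tetracycline over both lines, limma 3.58.1 (R 4.3.3) was fitted to probes that were well above background on 2 or more arrays, blocking on cell line and with a trend on intensity, and p-values were adjusted by Benjamini-Hochberg over them all. Fits and fold rules were tested on simulated data. Other steps used Python 3.11.15.

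The members, lists and tests were chosen with earlier results of these data known, and the count in the lowest 10% of genes was added after seeing the data. All members may be named. Signals on every array are given for the lowest and highest mean log2 fold change of each role, for CDK1, PLK1, MKI67 and FOXM1, and for members 2-fold higher or not well above background. Of the other mitosis and S-phase lists the 3 lowest and 3 highest means are named, and regulators and markers throughout, except 1 marker that is not reported here. Alternatives were other scalings, filters, cut-offs and model terms. The limma p-values rest on the spread between 2 lines with 1 array per group. That spread has 1 residual degree of freedom and is moderated by 3.26 prior degrees of freedom drawn from all probes tested.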

Additional observations from a re-analysis of the deposited data

Results flagged for a closer look

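With 1 array per group no sample could be set against others of its group. Some regulators and markers had log2 fold changes (+Tet over -Tet) on opposite sides of 0 in the 2 lines, each by more than the technical SD of 0.0889. CDKN1A stood at 0.41 in TR9-MeTA14 and -0.12 in TR15-MeTA5, and NFYA at -0.10 and 0.50. Of the markers, KRT8 stood at 0.24 and -0.35, COL1A1 at -0.24 and 0.86, PTPRC at 0.24 and -0.62, and CD3E at 0.41 and, as a bound, -1.35. The difference between the lines was not tested for any of them. No member was of this kind.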

How the results depend on the processing

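In TR9-MeTA14, the count of 42 members at least 2-fold lower became 40 with normexp and quantile normalization (without NCAPG and NCAPH), 41 with the filter to probes well above background on all 4 arrays, which drops NCAPH, and 41 at 3-fold, and it was 42 under the other alternatives. In each line 42 of 43 (41 of 42 under that filter) lay below the median of all genes. The members' median log2 fold change moved to -2.09 with normexp and quantile normalization and to -2.53 on spike-in probes, and in TR15-MeTA5 to -0.27 on spike-in probes. The counts lower in TR15-MeTA5 and in both lines (5 each) became 3 with quantile normalization, 0 with the percentile over spots, with normexp and quantile normalization, on spike-in probes or at 3-fold, 32 at 1.5-fold, and 30 by the lowest 10% of genes. The median difference between lines without tetracycline became 0.89 with quantile normalization, 0.78 with normexp and quantile normalization and -0.0534, on the other side of 0, on spike-in probes. The 22 members higher there became 11 with normexp and quantile normalization, 0 on spike-in probes and 4 at 3-fold. With tetracycline the median became 2.28 with normexp and quantile normalization and 2.16 on spike-in probes. INCENP was not 3-fold higher in TR9-MeTA14 (0 members at 3-fold). Shares of all genes past a fold cut-off were not counted at 1.5-fold and 3-fold or under the other scalings. Member counts there have no background beside them and cannot be read alone. By limma, 0 members passed in either direction under all alternatives. The deposited series table holds the same values and is no test of stability. The cause of these shifts was not tested. The limma fit pairs the arrays of a line through its block, and without that block 0 members, in place of 38, were lower at an unadjusted p under 0.05. Each group has 1 replicate, so no further pairing by replicate number was made and no replicate could be left out. Signal over background limits NCAPH, which was well above background on 2 of 4 arrays, and the precision of every value is limited by how few arrays there are.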
